A study of Mus musculus with 21 samples.

Results

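Collagens are secreted or membrane-bound proteins built from 3 polypeptide chains wound into a triple helix, and each chain has its own gene. The collagen chain genes were taken as every symbol made of Col, a number, a and a number that both deposited count tables list, which gave 44 genes of the 24381 shared by the tables. They divide by the structures their proteins form into 11 fibrillar, 6 basement membrane network, 3 basement membrane zone, 6 beaded filament, 9 fibril-associated, 3 short-chain network and 4 transmembrane chains, with Col26a1 and Col28a1 as 2 others. The mean over all libraries was at least 1 CPM (a gene's share of its library's counts, scaled by TMM factors) for 37 of them and at least 10 CPM for 25. The 7 below 1 CPM were Col10a1, Col13a1, Col4a6, Col6a6, Col6a4, Col17a1 and Col9a1.

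The RNA came from mouse dorsal root ganglia, which hold the cell bodies of sensory neurons together with glia, vessels and connective tissue. All animals carried the Tmem45b-flox allele, either alone (flox) or with Mrgprd-cre (cKO), in which Cre is named for Mrgprd, a receptor gene of a class of nociceptors. Groups follow the sample titles, since the genotype field names the Cre line for every library. The 21 libraries are 3 flox and 3 cKO untreated libraries named LDRG, 3 flox and 4 cKO untreated libraries named con or ko, and, from what the labels call a CFA model without spelling the letters out, 4 flox and another 4 cKO. LDRG and CFA libraries share a count table and the con/ko libraries have another. CFA cannot be told apart from the name set in the comparison with LDRG, nor from the name set and the table in that with con/ko. Strain, age, the CFA dose, the time after it and pooling of animals are not given in the sources used here, nor is it stated whether each library is its own animal. The p-values then rest on the variation among libraries, which may be technical.

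Total counts ranged from 53.4 M to 72.5 M per library, and no replicate pair agreed within sampling noise. Tmem45b, the floxed gene, lay between 124 and 179 CPM in the 6 untreated flox libraries and between 59.7 and 88.2 CPM in the 7 untreated cKO libraries. In CFA it lay between 65.5 and 136 CPM in libraries labelled flox and between 62.6 and 108.2 CPM in those labelled cKO, so the CFA genotypes are given as labels. Xist, which coats and silences an X chromosome in females, was at 283 CPM or above in CFA, at 0.33 CPM or below in LDRG, and ran from 0 to 322 CPM in the con/ko libraries. The sensory neuron markers summed to between 14047 and 21914 CPM in every library. Bulk RNA cannot tell fewer cells of a type from less RNA per cell.

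In peripheral ganglia and nerves, fibrillar collagens are made mainly by fibroblasts of the surrounding connective tissue, and basement membranes of type IV collagen wrap Schwann cells, satellite glia and vessels. Type VI collagen forms beaded filaments between fibrils and basement membranes. Fibril-associated collagens coat the fibrils, and type V and XI chains help set fibril width. Chains act in fixed partnerships, such as Col1a1 with Col1a2 in type I collagen and Col4a1 with Col4a2 in the common basement membrane network.

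The triple helix needs a glycine at the start of each 3-residue repeat, and the exons below were chosen to show that repeat. The exons below are 54 bases long, taken from 4 members whose levels carry the results, and the capitals mark the glycine codon (GGN) that opens each repeat of 3 codons. The sequences are from GENCODE vM21 transcripts, with coordinates on mm10.
Col1a2 (chr6:4530957-4531010, plus strand): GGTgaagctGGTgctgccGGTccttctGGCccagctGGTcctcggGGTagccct
Col3a1 (chr1:45337958-45338011, plus strand): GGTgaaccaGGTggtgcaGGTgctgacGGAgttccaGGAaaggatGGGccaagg
Col5a1 (chr2:27997563-27997616, plus strand): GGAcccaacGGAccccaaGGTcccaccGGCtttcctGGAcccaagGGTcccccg
Col6a3 (chr1:90795915-90795968, minus strand): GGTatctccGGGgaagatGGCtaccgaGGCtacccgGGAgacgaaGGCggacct
Each was the first exon past the middle of the coding sequence with 54 bases, in frame, and a glycine codon opening every repeat. The 18 codons, the 6 repeats and the opening glycine codon therefore follow from the choice. Exon sizes of this kind differed between the classes. The share of coding exons with 45, 54 or 99 bases, or 2 or 3 times 54, was 68.2% to 82.7% in the fibrillar genes (median 78.3%), 15.4% to 24.4% in the basement membrane network genes, 10% to 17.1% in the beaded filament genes and 0 in the 3 short-chain genes. The fibril-associated genes ranged from 6.2% to 58.7%.

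Levels of different genes were compared per kilobase of exon. The divisor was the union of all annotated exons of a gene, so ranks, shares and partner ratios depend on it. The 6 highest members were Col1a2 at 23.8 CPM per kilobase, Col5a3 at 21.9, Col28a1 at 19.6, Col4a1 at 18.2, Col1a1 at 17.1 and Col3a1 at 15.8 CPM per kilobase. Together they made up 51.4% of the summed collagen level. They are 4 fibrillar chains, the basement membrane chain Col4a1, and Col28a1, a chain known from peripheral nerve.

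**Figure D1:**
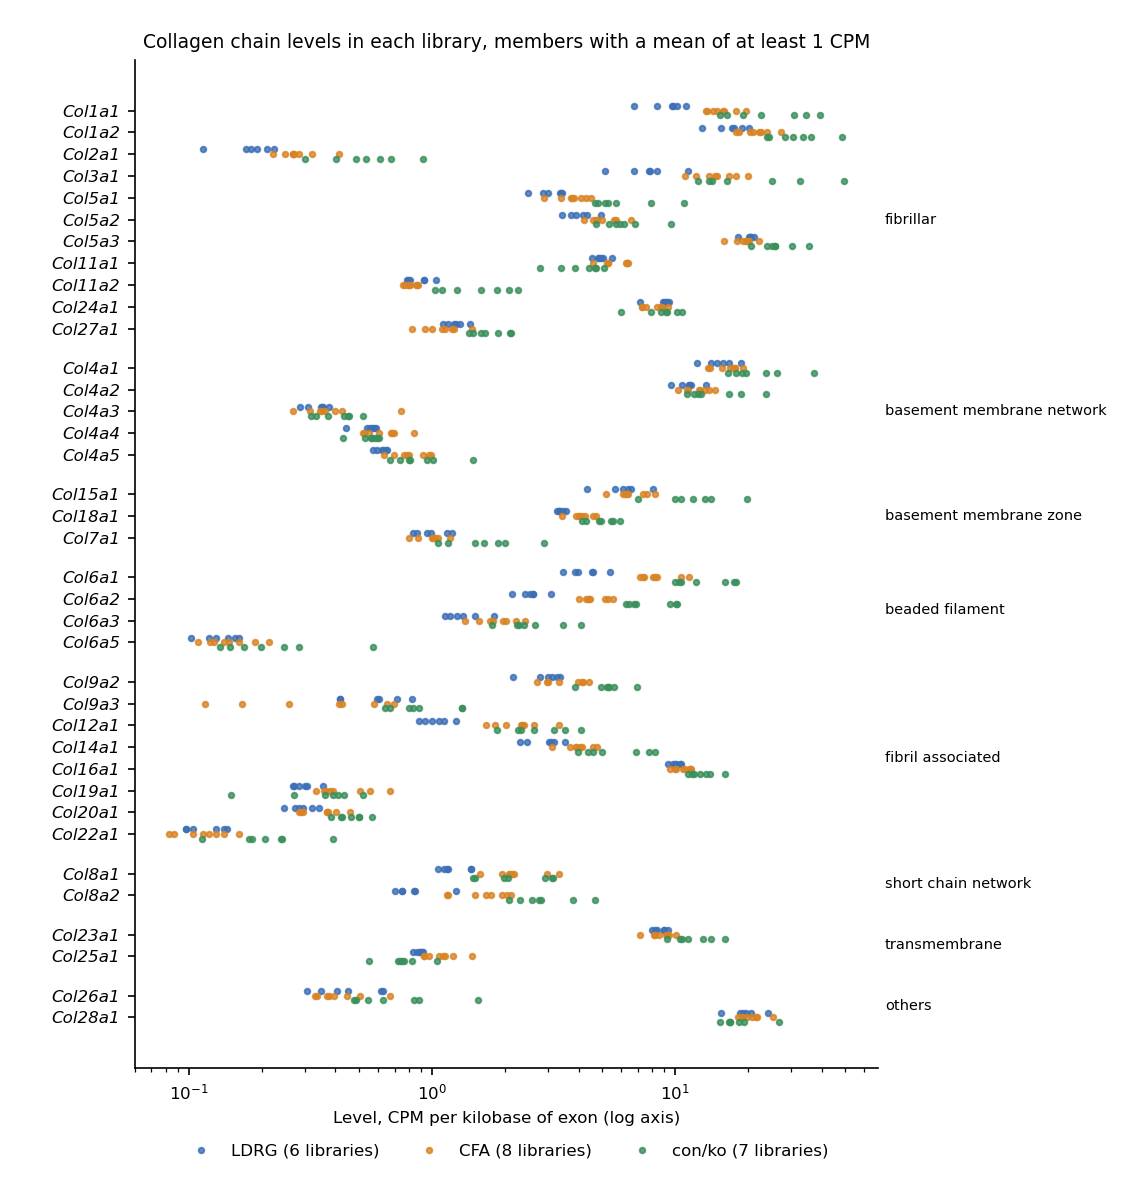
Level of each collagen chain in CPM per kilobase of exon (log axis), 1 point per library, coloured by name set, for the 37 members averaging 1 CPM or more. The con/ko points of Col1a1, Col3a1, Col6a1 and Col6a2 lie right of the LDRG points, and the points of Col28a1 overlap.

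Col1a2 stood at 161, 233 and 249 CPM in the flox LDRG libraries and 217, 213 and 192 CPM in the cKO LDRG libraries. Col1a2 levels in the CFA libraries were 280.3, 252, 261 and 226 CPM where labelled flox and 339, 295, 275 and 221 CPM where labelled cKO. Col1a2 was at 605, 379 and 451 CPM in flox con/ko and 296, 352, 302 and 416 CPM in cKO con/ko libraries. Col1a2, the second chain of type I collagen, was lower in every LDRG library than in any con/ko library. Col5a3 stood at 123, 139 and 139 CPM in the flox LDRG libraries and 136, 139.7 and 143 CPM in the cKO LDRG libraries. Col5a3 levels in the CFA libraries were 149.8, 136, 133 and 107.7 CPM where labelled flox and 122, 137, 129 and 134 CPM where labelled cKO. Col5a3 was at 241, 171 and 206 CPM in flox con/ko and 175, 139, 174 and 163 CPM in cKO con/ko libraries. Col5a3, a type V chain known from Schwann cells, was at like levels in the LDRG and CFA libraries, and the con/ko libraries overlapped both. Col28a1 stood at 75.4, 95.5 and 117 CPM in the flox LDRG libraries and 100.5, 93.4 and 90.4 CPM in the cKO LDRG libraries. Col28a1 levels in the CFA libraries were 123, 105, 96.4 and 88.4 CPM where labelled flox and 93.0, 107, 92.5 and 101.4 CPM where labelled cKO. Col28a1 was at 131, 93.7 and 81.7 CPM in flox con/ko and 82.5, 82.1, 90.05 and 75.0 CPM in cKO con/ko libraries. The 3 sets overlapped for Col28a1, with no call in any comparison. Col4a1 stood at 91.9, 124 and 139 CPM in the flox LDRG libraries and 117, 111 and 105 CPM in the cKO LDRG libraries. Col4a1 levels in the CFA libraries were 132, 125, 116 and 104 CPM where labelled flox and 142, 132, 129 and 102 CPM where labelled cKO. Col4a1 was at 278, 176 and 196 CPM in flox con/ko and 123, 146, 140.4 and 132 CPM in cKO con/ko libraries. The flox con/ko libraries were the 3 highest for Col4a1, the main basement membrane chain.

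Summed over the 44 genes, the collagen level was 175 ± 16.4 CPM per kilobase in LDRG (SD, n = 6, range 147 to 197), 212 ± 20.8 in CFA (SD, n = 8, range 179.8 to 239) and 288 ± 67.1 in con/ko (SD, n = 7, range 240.2 to 420). The LDRG and CFA ranges overlapped, and the CFA and con/ko ranges did not. Within con/ko the flox libraries stood at 420, 285 and 331 CPM per kilobase and the cKO libraries at 240.3, 246, 240.2 and 249.9, so flox con/ko 4 was the highest library of the series. The fibrillar share of the sum was 44.3% in LDRG, 45.6% in CFA and 47.4% in con/ko. Beaded filament chains took 4.83% in LDRG, 7.25% in CFA and 8.53% in con/ko, with ranges of 4.32% to 5.36%, 6.48% to 8.09% and 7.44% to 9.93%. Basement membrane network chains took 16.1%, 14.5% and 13.8%.

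**Figure D2:**
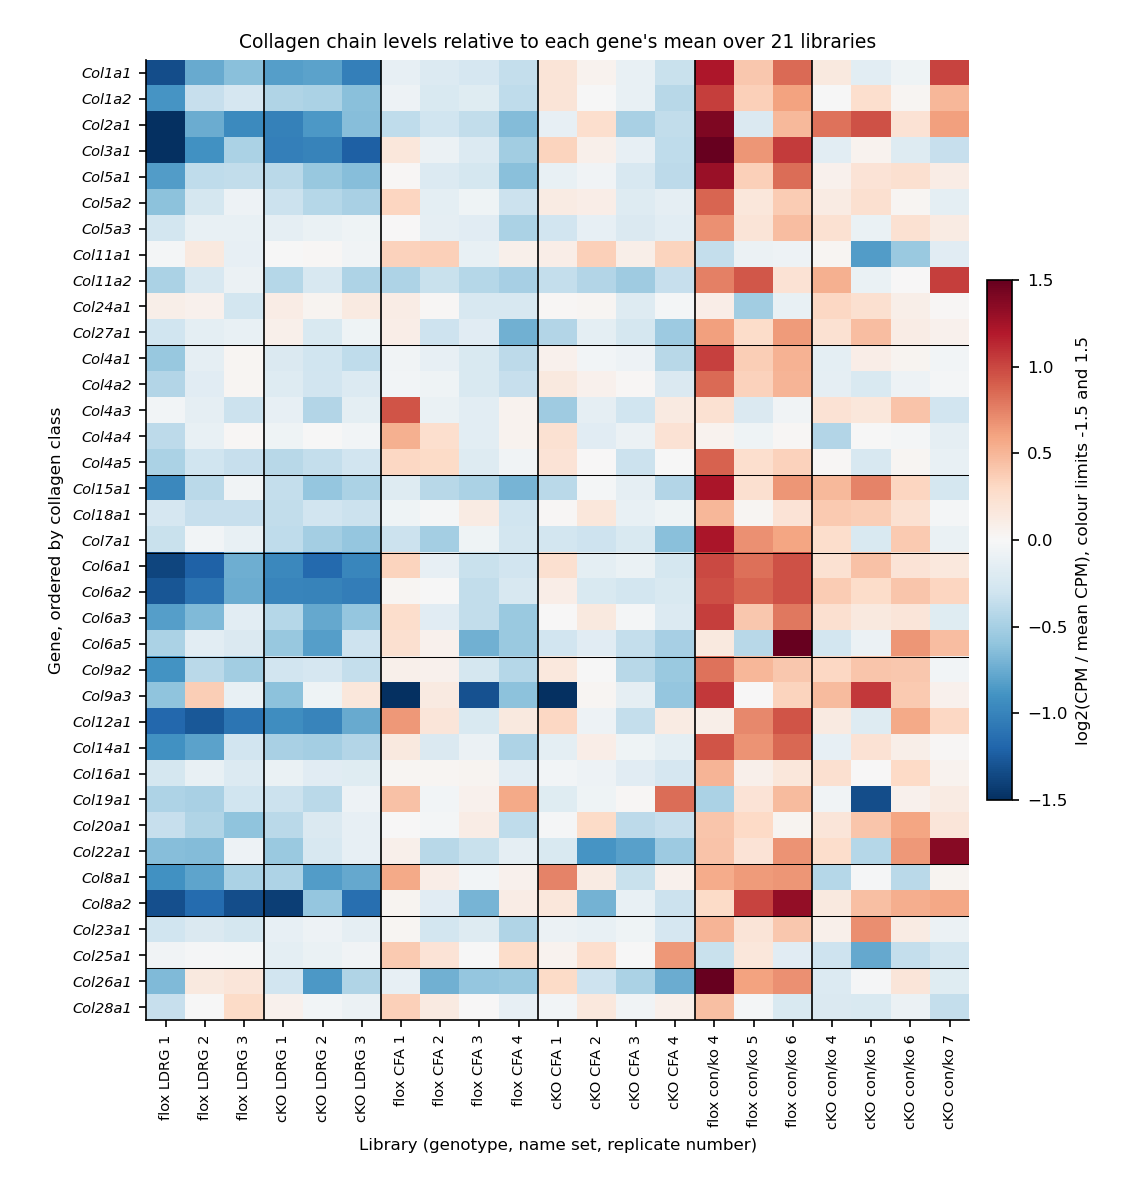
log2 of each member's CPM over its mean of 21 libraries, with libraries in columns by group and the 37 members averaging 1 CPM or more in rows by class. Col1a1, Col3a1, Col6a1 and Col6a2 are blue in the 6 LDRG libraries, and flox con/ko 4 is red for most fibrillar and basement membrane chains.

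The con/ko and LDRG libraries are both untreated, and their comparison shows how far libraries without CFA differ. Their count tables and Xist levels differ too, as given above. With all libraries used, a sex difference was not separated from the name set. Averaged over genotypes, 30 of the 44 members were higher in con/ko and 0 were lower (edgeR quasi-likelihood test, Benjamini-Hochberg adjusted p under 0.05 over 16928 genes). Of all genes tested, 25.7% were higher and 23% lower. The members' median difference was 0.65 on the log2 scale against 0.02 over all genes. By class the test called 9 of 11 fibrillar, 4 of 6 basement membrane network, 3 of 3 basement membrane zone, 4 of 6 beaded filament, 6 of 9 fibril-associated, 2 of 3 short-chain, 1 of 4 transmembrane chains and 1 of the others, Col26a1. Every con/ko library lay above every LDRG library for 17 members, where 12.6% of 16952 genes do so. With flox libraries only 27 members were higher (17.4% of all genes), and with cKO libraries only 21 (17.8% of all genes). The calls of Col23a1, Col26a1, Col27a1, Col4a1, Col4a2, Col4a5, Col5a3, Col6a5 and Col8a1 were lost with cKO libraries only, and those of Col22a1, Col4a6 and Col6a5 with flox libraries only. A further fit kept only the con/ko libraries with the code letter M, which the labels do not explain, and 1 of them was flox. In it Col26a1 was at 0.64 and Col4a6 at 1.69 on the log2 scale.

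Type VI collagen held the 2 smallest p-values of the members, with Col6a2 and Col6a1. Col6a2 stood at 17.8, 20.01 and 25.8 CPM in the flox LDRG libraries and 21.7, 21.6 and 20.98 CPM in the cKO LDRG libraries. Col6a2 levels in the CFA libraries were 44.0, 42.9, 33.6 and 36.5 CPM where labelled flox and 46.2, 36.8, 35.6 and 37.0 CPM where labelled cKO. Col6a2 was at 84.3, 78.9 and 83.5 CPM in flox con/ko and 56.5, 52.4, 57.4 and 53.8 CPM in cKO con/ko libraries. Col6a2, a chain of the beaded filament heterotrimer, was in order LDRG, CFA, con/ko with no overlap between any of the sets, and con/ko exceeded LDRG by 1.66 log2 units (SE 0.09, adjusted p = 5.8e-10). Col6a1 stood at 15.2, 17.0 and 23.7 CPM in the flox LDRG libraries and 20.1, 17.5 and 19.97 CPM in the cKO LDRG libraries. Col6a1 levels in the CFA libraries were 49.7, 36.3, 31.3 and 32.2 CPM where labelled flox and 46.4, 35.6, 36.7 and 32.7 CPM where labelled cKO. Col6a1 was at 77.999, 69.8 and 76.1 CPM in flox con/ko and 46.1, 53.2, 45.4 and 43.9 CPM in cKO con/ko libraries. Col6a1, its partner, differed by 1.65 log2 units (SE 0.12, adjusted p = 1.8e-08) between con/ko and LDRG. Col6a3 stood at 13.5, 15.1 and 21.5 CPM in the flox LDRG libraries and 17.9, 14.1 and 16.0 CPM in the cKO LDRG libraries. Col6a3 levels in the CFA libraries were 28.7, 21.4, 18.6 and 16.3 CPM where labelled flox and 24.1, 26.5, 23.4 and 20.7 CPM where labelled cKO. Col6a3 was at 49.2, 31.8 and 41.4 CPM in flox con/ko and 28.4, 26.6, 27.3 and 21.1 CPM in cKO con/ko libraries. Col6a3, the large partner chain, differed by 0.99 log2 units (SE 0.14, adjusted p = 1.9e-05). Col6a5 stood at 1.21, 1.51 and 1.45 CPM in the flox LDRG libraries and 1.141, 0.954 and 1.36 CPM in the cKO LDRG libraries. Col6a5 levels in the CFA libraries were 1.997, 1.76, 1.02 and 1.145 CPM where labelled flox and 1.38, 1.503, 1.32 and 1.19 CPM where labelled cKO. Col6a5 was at 1.87, 1.26 and 5.35 CPM in flox con/ko and 1.39, 1.59, 2.67 and 2.32 CPM in cKO con/ko libraries. Col6a5, a beaded filament chain related to Col6a3, was 0.91 log2 units (SE 0.28, adjusted p = 0.0116) higher, and flox con/ko 6 was its highest library. Without flox con/ko 6 the Col6a5 difference was 0.48 (adjusted p = 0.0688).

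Most fibrillar chains were also higher in con/ko. Col1a1 stood at 44.5, 66.5 and 72.7 CPM in the flox LDRG libraries and 63.3, 64.0 and 55.1 CPM in the cKO LDRG libraries. Col1a1 levels in the CFA libraries were 103, 97.5, 94.1 and 87.7 CPM where labelled flox and 128, 116, 104 and 88.9 CPM where labelled cKO. Col1a1 was at 259, 148 and 202 CPM in flox con/ko and 124, 100.6, 107 and 227 CPM in cKO con/ko libraries. Col1a1, the major chain of type I collagen, was 1.47 log2 units (SE 0.18, adjusted p = 4.1e-06) higher in con/ko, with no overlap with LDRG. Col3a1 stood at 50.4, 82.3 and 111 CPM in the flox LDRG libraries and 76.3, 77.3 and 66.1 CPM in the cKO LDRG libraries. Col3a1 levels in the CFA libraries were 174, 146, 135 and 108.03 CPM where labelled flox and 195, 164, 142 and 119 CPM where labelled cKO. Col3a1 was at 484, 245 and 320.0 CPM in flox con/ko and 139, 160.4, 135 and 122 CPM in cKO con/ko libraries. Col3a1, which forms homotrimers in soft tissue and vessel walls, was 1.52 log2 units (SE 0.18, adjusted p = 3.1e-06) higher. Col5a1 stood at 21.1, 28.9 and 29.1 CPM in the flox LDRG libraries and 28.5, 25.5 and 24.2 CPM in the cKO LDRG libraries. Col5a1 levels in the CFA libraries were 38.3, 32.7, 31.5 and 24.5 CPM where labelled flox and 34.9, 36.3, 32.0 and 28.7 CPM where labelled cKO. Col5a1 was at 92.3, 48.4 and 67.3 CPM in flox con/ko and 39.6, 43.6, 44.7 and 40.6 CPM in cKO con/ko libraries. Col5a1, a type V chain, was 1.05 log2 units (SE 0.13, adjusted p = 4.4e-06) higher, again with no overlap. Col2a1 stood at 1.05, 1.92 and 1.66 CPM in the flox LDRG libraries and 1.59, 1.77 and 2.07 CPM in the cKO LDRG libraries. Col2a1 levels in the CFA libraries were 2.47, 2.61, 2.50 and 2.05 CPM where labelled flox and 2.97, 3.84, 2.299 and 2.48 CPM where labelled cKO. Col2a1 was at 8.47, 2.77 and 4.49 CPM in flox con/ko and 5.65, 6.24, 3.73 and 4.92 CPM in cKO con/ko libraries. Col2a1, best known from cartilage, was 1.63 log2 units (SE 0.22, adjusted p = 1.3e-05) higher, from low levels. Col11a2 stood at 5.40, 6.37 and 7.10 CPM in the flox LDRG libraries and 5.59, 6.35 and 5.47 CPM in the cKO LDRG libraries. Col11a2 levels in the CFA libraries were 5.47, 5.99, 5.58 and 5.33 CPM where labelled flox and 5.89, 5.53, 5.19 and 5.94 CPM where labelled cKO. Col11a2 was at 12.7, 14.3 and 8.70 CPM in flox con/ko and 10.9, 7.03, 7.55 and 15.5 CPM in cKO con/ko libraries. Col11a2, a type XI chain, was 0.87 log2 units (SE 0.16, adjusted p = 0.000171) higher. Col11a1 at -0.25 log2 units (SE 0.12, adjusted p = 0.0887) and Col24a1 at -0.02 log2 units (SE 0.09, adjusted p = 0.85) were the fibrillar chains without a call. Col1a2 at 0.94 log2 units (SE 0.13, adjusted p = 1.1e-05), Col5a2 at 0.65 log2 units (SE 0.12, adjusted p = 0.00031), Col27a1 at 0.50 log2 units (SE 0.11, adjusted p = 0.00152) and Col5a3 at 0.42 log2 units (SE 0.08, adjusted p = 0.000275) were the other fibrillar chains called.

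Among basement membrane genes, Col4a1 was 0.58 log2 units (SE 0.11, adjusted p = 0.000302) and Col4a2 0.44 log2 units (SE 0.09, adjusted p = 0.000437) higher in con/ko. With cKO libraries only, Col4a1 differed by 0.29 (adjusted p = 0.145), Col4a2 by 0.12 (adjusted p = 0.475) and Col4a5 by 0.29 (adjusted p = 0.175) on the log2 scale, and none of them was called. Col4a5 stood at 3.85, 4.34 and 4.21 CPM in the flox LDRG libraries and 3.999, 4.16 and 4.37 CPM in the cKO LDRG libraries. Col4a5 levels in the CFA libraries were 6.61, 6.50, 4.69 and 5.14 CPM where labelled flox and 6.14, 5.39, 4.27 and 5.31 CPM where labelled cKO. Col4a5 was at 9.84, 6.36 and 6.77 CPM in flox con/ko and 5.41, 4.52, 5.47 and 4.95 CPM in cKO con/ko libraries. Col4a5, a chain of the Col4a3-Col4a4-Col4a5 network, was 0.59 log2 units (SE 0.12, adjusted p = 0.000465) higher, while Col4a3 at 0.27 and Col4a4 at 0.03 had no call. Col4a6 stood at 0.456, 0 and 0.199 CPM in the flox LDRG libraries and 0.274, 0.199 and 0.0822 CPM in the cKO LDRG libraries. Col4a6 levels in the CFA libraries were 0.478, 0.53, 0.298 and 0.161 CPM where labelled flox and 0.412, 0.342, 0.448 and 0.33 CPM where labelled cKO. Col4a6 was at 0.911, 0.312 and 0.447 CPM in flox con/ko and 1.07, 0.653, 1.37 and 0.535 CPM in cKO con/ko libraries. Col4a6, encoded head to head with Col4a5 on the X chromosome, was called at 1.81 log2 units (SE 0.55, adjusted p = 0.0114) at very low levels, the highest library being at 1.37 CPM. Col15a1 stood at 27.4, 40.5 and 51.5 CPM in the flox LDRG libraries and 41.6, 35.7 and 38.6 CPM in the cKO LDRG libraries. Col15a1 levels in the CFA libraries were 46.8, 40.1, 38.5 and 33.0 CPM where labelled flox and 40.6, 52.6, 48.5 and 39.5 CPM where labelled cKO. Col15a1 was at 125, 63.1 and 84.5 CPM in flox con/ko and 75.0, 89.2, 66.8 and 44.6 CPM in cKO con/ko libraries. Col15a1, a multiplexin of the basement membrane zone, was 1.013 log2 units (SE 0.18, adjusted p = 0.000132) higher in con/ko. Col18a1, the other multiplexin and the source of endostatin, was 0.58 log2 units (SE 0.09, adjusted p = 2.7e-05) higher, and Col7a1 0.81 log2 units (SE 0.12, adjusted p = 2.8e-05).

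Fibril-associated and short-chain genes were higher in con/ko in 8 of 12 cases. Col12a1 stood at 14.3, 13.4 and 15.2 CPM in the flox LDRG libraries and 17.0, 16.2 and 19.1 CPM in the cKO LDRG libraries. Col12a1 levels in the CFA libraries were 50.7, 36.5, 27.5 and 35.7 CPM where labelled flox and 40.1, 30.7, 25.2 and 35.2 CPM where labelled cKO. Col12a1 was at 34.4, 53.4 and 62.0 CPM in flox con/ko and 35.4, 28.2, 48.0 and 40.1 CPM in cKO con/ko libraries. Col12a1, a fibril-associated chain, was 1.47 log2 units (SE 0.16, adjusted p = 1.2e-06) higher in con/ko, and every LDRG library was below every library of both other sets. Col14a1 stood at 16.1, 17.3 and 24.8 CPM in the flox LDRG libraries and 21.6, 21.2 and 22.2 CPM in the cKO LDRG libraries. Col14a1 levels in the CFA libraries were 33.5, 25.9, 28.3 and 21.8 CPM where labelled flox and 27.3, 32.3, 28.9 and 27.3 CPM where labelled cKO. Col14a1 was at 57.9, 48.1 and 54.7 CPM in flox con/ko and 27.8, 35.0, 32.1 and 30.5 CPM in cKO con/ko libraries. Col14a1, a related chain that binds decorin on fibrils, was 1.003 log2 units (SE 0.11, adjusted p = 7.4e-07) higher. Col16a1 stood at 63.3, 70.3 and 65.9 CPM in the flox LDRG libraries and 71.2, 67.9 and 67.2 CPM in the cKO LDRG libraries. Col16a1 levels in the CFA libraries were 77.9, 77.9, 78.2 and 68.1 CPM where labelled flox and 74.1, 72.4, 67.6 and 64.1 CPM where labelled cKO. Col16a1 was at 108.1, 80.6 and 85.5 CPM in flox con/ko and 90.2, 76.2, 93.7 and 79.1 CPM in cKO con/ko libraries. Col16a1 was called at the smaller difference of 0.38 log2 units (SE 0.07, adjusted p = 0.000152). Col8a2 stood at 3.38, 3.78 and 3.36 CPM in the flox LDRG libraries and 3.16, 5.61 and 3.83 CPM in the cKO LDRG libraries. Col8a2 levels in the CFA libraries were 8.67, 7.48, 5.21 and 9.13 CPM where labelled flox and 9.51, 5.16, 7.81 and 6.75 CPM where labelled cKO. Col8a2 was at 10.3, 17.0 and 20.9 CPM in flox con/ko and 9.30, 11.5, 12.3 and 12.6 CPM in cKO con/ko libraries. Col8a2, a short chain of hexagonal networks, had the largest called difference of the members, 1.82 log2 units (SE 0.19, adjusted p = 6.8e-07). Col8a1 stood at 8.30, 9.001 and 11.3 CPM in the flox LDRG libraries and 11.3, 8.74 and 9.12 CPM in the cKO LDRG libraries. Col8a1 levels in the CFA libraries were 23.2, 16.7, 15.2 and 16.4 CPM where labelled flox and 26.0, 17.0, 12.3 and 16.2 CPM where labelled cKO. Col8a1 was at 22.9, 24.3 and 24.6 CPM in flox con/ko and 11.6, 15.5, 11.8 and 16.0 CPM in cKO con/ko libraries. Its partner Col8a1 was 0.91 log2 units (SE 0.15, adjusted p = 9.1e-05) higher. Col9a2 at 0.88 log2 units (SE 0.13, adjusted p = 2.8e-05), Col20a1 at 0.66 log2 units (SE 0.14, adjusted p = 0.000605) and Col22a1 at 0.89 log2 units (SE 0.23, adjusted p = 0.00356) were the other fibril-associated chains called, and Col23a1 at 0.49 log2 units (SE 0.10, adjusted p = 0.000766) the transmembrane one. Chains with no call were Col25a1, a transmembrane collagen of neurons, at -0.19, Col28a1 at -0.06, Col9a3 at 0.64 and Col19a1 at 0.30 on the log2 scale. The low-level chains Col10a1, Col13a1, Col17a1, Col9a1, Col6a6 and Col6a4 also had no call, with values from -1.22 to 0.85.

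**Figure D3:**
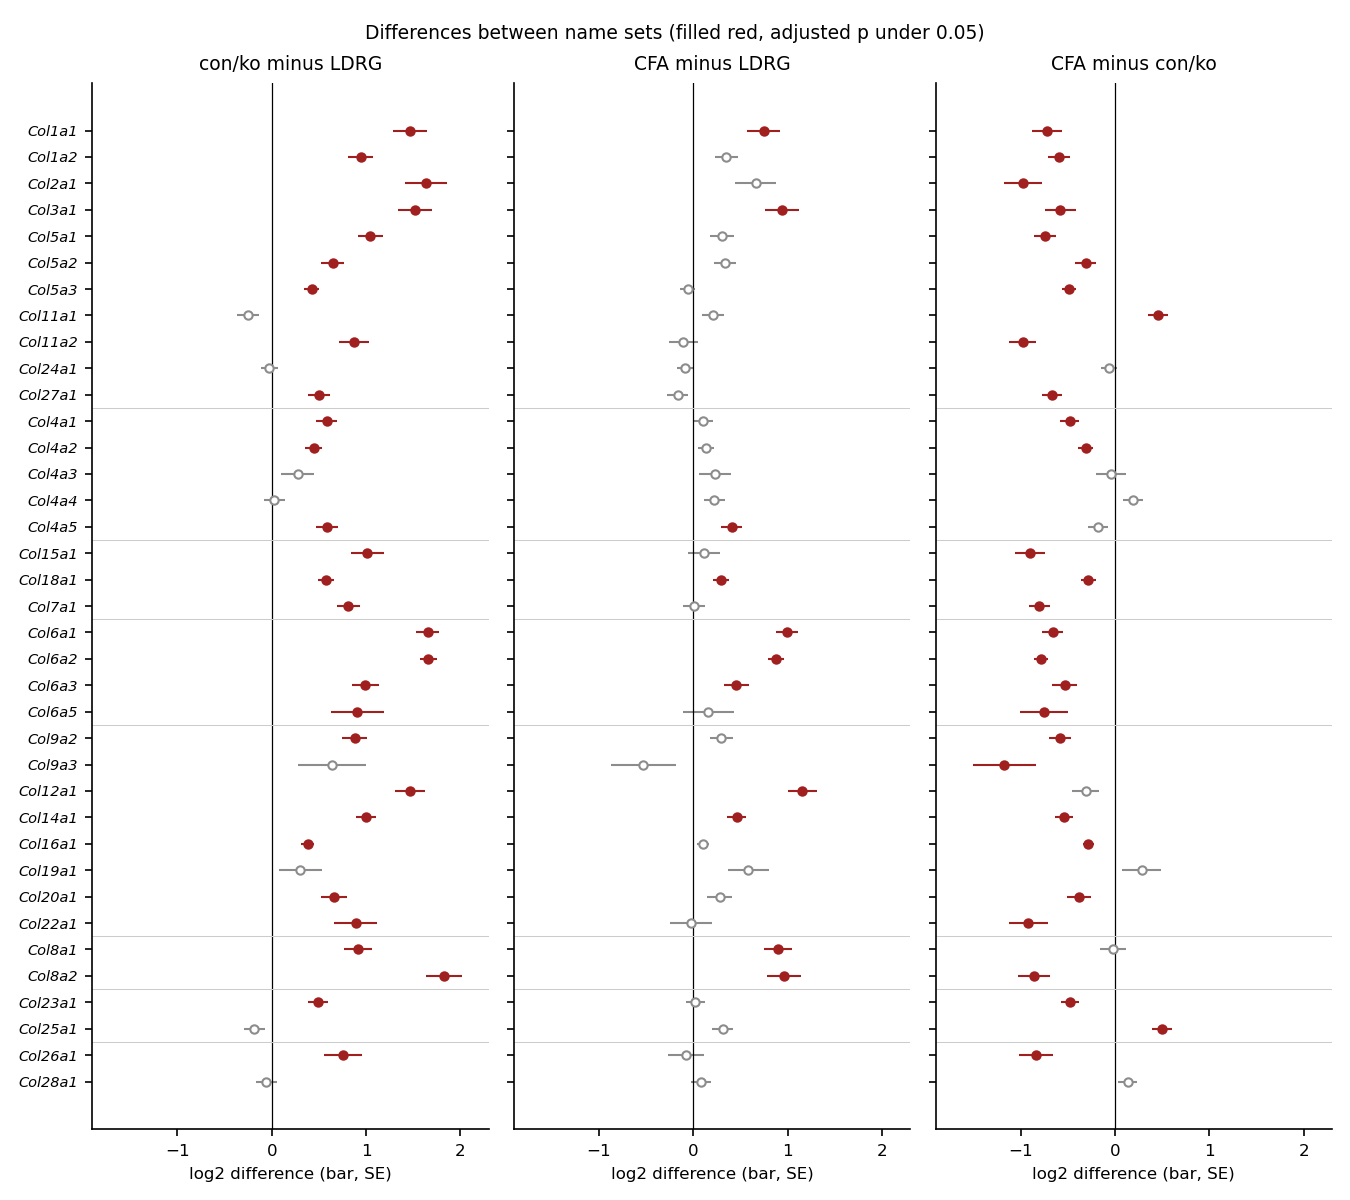
Log2 differences between name sets for the 37 members with a mean of at least 1 CPM, averaged over genotypes, with bars of 1 SE and filled red points for adjusted p under 0.05. In the panel of con/ko minus LDRG the called points are all right of 0, up to 1.82 for Col8a2, and in CFA minus con/ko most called points are left of 0.

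CFA against LDRG asked how ganglia of the CFA model compare with untreated ganglia of the same table. In CFA 11 of 44 members were higher and 0 lower by edgeR, against 6.7% of all genes higher and 5.23% lower, and the median difference was 0.23 against 0.00 over all genes. The called chains, with their log2 differences, were Col12a1 at 1.16 log2 units (SE 0.16, adjusted p = 0.000223), Col6a1 at 0.996 log2 units (SE 0.12, adjusted p = 7.6e-05), Col8a2 at 0.96 log2 units (SE 0.18, adjusted p = 0.00248), Col3a1 at 0.94 log2 units (SE 0.17, adjusted p = 0.00227), Col8a1 at 0.90 log2 units (SE 0.15, adjusted p = 0.001), Col6a2 at 0.88 log2 units (SE 0.08, adjusted p = 8.9e-06), Col1a1 at 0.75 log2 units (SE 0.17, adjusted p = 0.00918), Col14a1 at 0.46 log2 units (SE 0.10, adjusted p = 0.00699), Col6a3 at 0.46 log2 units (SE 0.14, adjusted p = 0.0363), Col4a5 at 0.41 log2 units (SE 0.11, adjusted p = 0.0266) and Col18a1 at 0.30 log2 units (SE 0.08, adjusted p = 0.0264). Every LDRG library was below every CFA library for 6 members, Col1a1, Col6a1, Col6a2, Col12a1, Col8a1 and Col25a1, where 3.55% of all genes are so ordered. With flox libraries only 5 members were called (1.94% of all genes higher), and with cKO libraries only 4 (0.886% of all genes higher), taking the CFA genotypes as labelled. The basement membrane chains Col4a1 (0.10) and Col4a2 (0.13) had no call.

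The Col6a3 call was lost without CFA libraries labelled cKO 2, flox 1 or flox 2, or without cKO LDRG 2 or 3 or flox LDRG 1 or 2, with values of 0.37 to 0.46. The Col4a5 call was lost without CFA flox 1 or 2, cKO LDRG 1 or 2, or flox LDRG 1 or 2 (0.37 to 0.42). The Col18a1 call was lost without CFA cKO 2, cKO LDRG 1 or 3, or flox LDRG 2 or 3 (0.27 to 0.30). The sets differ in Xist as given above, and a sex difference cannot be told apart from CFA here.

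CFA against con/ko uses the same CFA libraries with the other untreated set. In CFA 27 members were lower and 2 higher, against 28% of all genes lower and 24.1% higher, with a median of -0.51 against -0.04 over all genes. The 2 higher were Col25a1 at 0.50 log2 units (SE 0.10, adjusted p = 0.000639) and Col11a1 at 0.46 log2 units (SE 0.11, adjusted p = 0.00192). Every CFA library was below every con/ko library for Col5a1, Col11a2 and Col6a2, where 9.5% of all genes are so ordered. With cKO libraries only 13 members were lower and 2 higher (20.9% and 18.4% of all genes), 14 of the calls were lost, and Col3a1 at 0.15 and Col4a2 at 0.12 on the log2 scale turned above 0. With flox libraries only 24 members were lower and 0 higher (17.7% and 16.7% of all genes). CFA libraries entered these fits by their genotype labels, between which Tmem45b levels overlapped. Both CFA comparisons share the CFA libraries, so their calls are not independent.

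Col9a3 stood at 1.61, 3.17 and 2.28 CPM in the flox LDRG libraries and 1.60, 2.34 and 2.76 CPM in the cKO LDRG libraries. Col9a3 levels in the CFA libraries were 0.449, 2.69, 0.994 and 1.60 CPM where labelled flox and 0.639, 2.50, 2.23 and 1.63 CPM where labelled cKO. Col9a3 was at 5.11, 2.46 and 3.09 CPM in flox con/ko and 3.40, 5.12, 3.22 and 2.57 CPM in cKO con/ko libraries. Col9a3, a cartilage fibril-associated chain, fell by 1.17 on the log2 scale in CFA against con/ko (SE 0.33, adjusted p = 0.0065), the largest called fall. Its CFA libraries spread from 0.449 to 2.69 CPM. With cKO libraries only the Col9a3 call was lost (-1.04, adjusted p = 0.0772). With con/ko libraries coded L only its value was -0.76. Col22a1 stood at 0.897, 0.89 and 1.32 CPM in the flox LDRG libraries and 0.953, 1.18 and 1.28 CPM in the cKO LDRG libraries. Col22a1 levels in the CFA libraries were 1.48, 1.05, 1.11 and 1.28 CPM where labelled flox and 1.19, 0.759, 0.795 and 0.958 CPM where labelled cKO. Col22a1 was at 1.88, 1.62 and 2.22 CPM in flox con/ko and 1.67, 1.04, 2.204 and 3.60 CPM in cKO con/ko libraries. Col22a1, a chain of tissue junctions, differed by -0.92 log2 units (SE 0.21, adjusted p = 0.00136). Col7a1 stood at 10.1, 12.4 and 11.8 CPM in the flox LDRG libraries and 9.77, 8.94 and 8.55 CPM in the cKO LDRG libraries. Col7a1 levels in the CFA libraries were 10.2, 9.01, 12.2 and 10.6 CPM where labelled flox and 10.5, 10.3, 10.9 and 8.29 CPM where labelled cKO. Col7a1 was at 29.8, 20.5 and 19.2 CPM in flox con/ko and 15.4, 10.9, 16.8 and 11.96 CPM in cKO con/ko libraries. Col7a1, the anchoring fibril chain, differed by -0.80 log2 units (SE 0.11, adjusted p = 1.2e-05). Col26a1 stood at 2.85, 5.01 and 5.12 CPM in the flox LDRG libraries and 3.70, 2.49 and 3.30 CPM in the cKO LDRG libraries. Col26a1 levels in the CFA libraries were 4.14, 2.74, 3.02 and 3.07 CPM where labelled flox and 5.51, 3.64, 3.24 and 2.70 CPM where labelled cKO. Col26a1 was at 12.7, 6.87 and 7.25 CPM in flox con/ko and 3.90, 4.45, 5.13 and 3.97 CPM in cKO con/ko libraries. Col26a1 differed by -0.83 log2 units (SE 0.18, adjusted p = 0.000863). The other called members of this size were Col11a2 at -0.98 log2 units (SE 0.14, adjusted p = 2.2e-05), Col2a1 at -0.97 log2 units (SE 0.20, adjusted p = 0.000563), Col15a1 at -0.90 log2 units (SE 0.16, adjusted p = 0.000154), Col8a2 at -0.86 log2 units (SE 0.17, adjusted p = 0.000355), Col6a2 at -0.78 log2 units (SE 0.08, adjusted p = 4.2e-07) and Col6a5 at -0.75 log2 units (SE 0.25, adjusted p = 0.0198). Without flox con/ko 6 the Col6a5 value was -0.32 (adjusted p = 0.186), and with con/ko libraries coded F only it was -0.11 (adjusted p = 0.66). The call of Col5a2 was lost without CFA libraries cKO 3, cKO 4, flox 2 or flox 4, or without flox con/ko 4 or cKO con/ko 5 (-0.29 to -0.20).

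**Figure D4:**
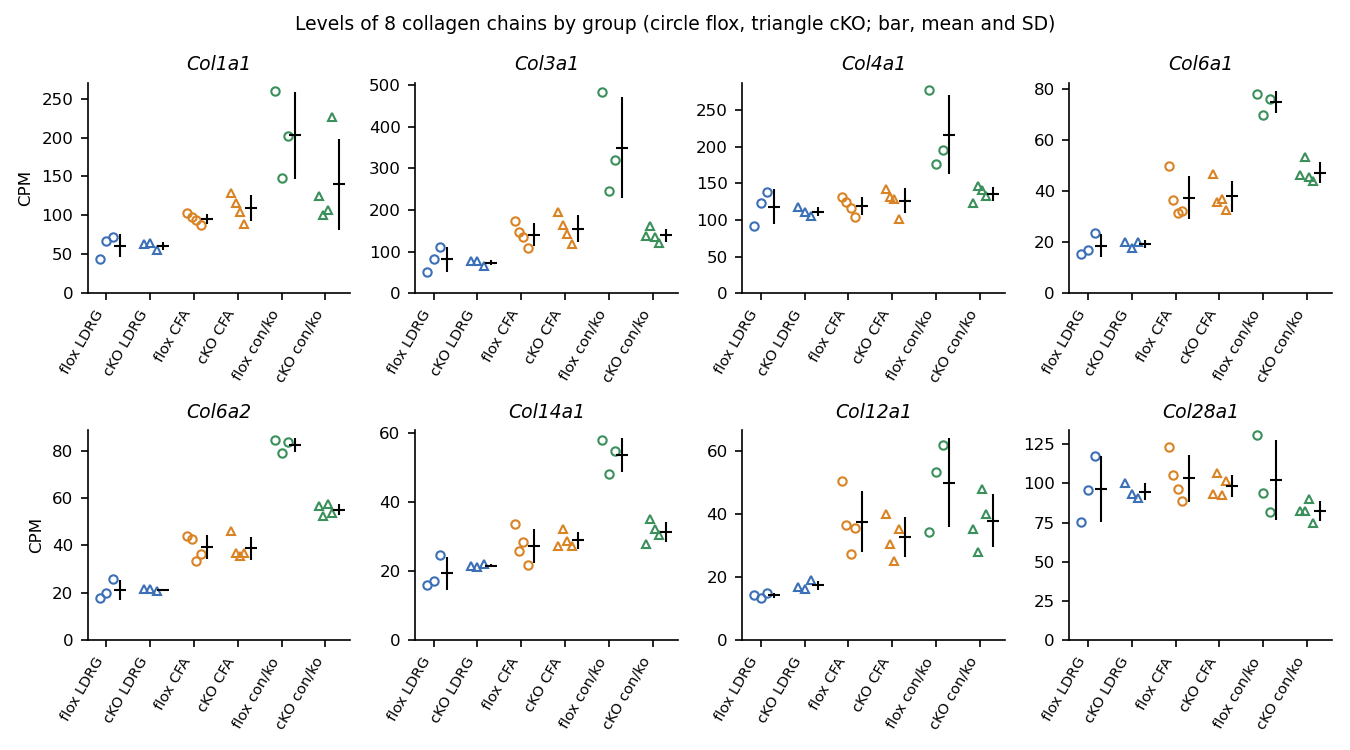
CPM of 8 collagen chains in each library by group (circles flox, triangles cKO), with the mean and SD beside the points. Col6a1, Col6a2 and Col12a1 are lowest in the LDRG libraries, and the flox con/ko points of Col6a1, Col6a2 and Col14a1 lie above the cKO con/ko points, while Col28a1 overlaps throughout.

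Partner chains were compared by their ratios per kilobase. The ratio of Col4a1 to Col4a2 was 1.21 to 1.76 over the 21 libraries, a 1.45-fold range, while Col4a1 itself ranged 3.02-fold. The ratio of Col6a1 to Col6a2 was 1.505 to 2.15, while Col6a1 ranged 5.15-fold. In plain CPM Col6a1 averaged 39.4 and Col6a2 43.2, so a ratio above 1 comes from their exon lengths of 4.38 and 8.33 kb. The ratio of Col8a1 to Col8a2 ranged 3.75-fold, more than Col8a1 itself (3.13-fold) and less than Col8a2 (6.62-fold). The ratio of Col1a1 to Col1a2 was 0.524 to 0.570 in LDRG, 0.684 to 0.762 in CFA and 0.541 to 1.03 in con/ko, so LDRG and CFA did not overlap. The ratio of Col6a3 to Col6a2 averaged 0.533 in LDRG, 0.401 in CFA and 0.334 in con/ko. Col8a1 to Col8a2 averaged 1.502 in LDRG, 1.41 in CFA and 0.789 in con/ko. Type I and type VI collagens use fixed chain numbers in the helix, and RNA ratios need not match those of the protein. No test was made on these ratios.

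Several members lie near one another in the genome (mm10). On chromosome 8, Col4a1 (11198423 to 11312826, minus strand) overlaps the start of Col4a2 (11312805 to 11449287, plus strand), and their start sites are 21 bases apart. Col6a2 (chromosome 10, 76595762 to 76623630) and Col6a1 (76708792 to 76726168) lie on the minus strand. Col3a1 (chromosome 1, 45311538 to 45349706, plus) is followed by Col5a2 (45374321 to 45503282, minus). Col6a6, Col6a5 and Col6a4 form a run on chromosome 9. Members lie on 15 chromosomes in all.

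The promoter windows of 2 fibrillar genes that were both higher in con/ko are shown because their letters differ. Capitals mark the CCAAT box, a TATA box spelled TATAAA, or a GC box spelled GGGCGG, on either strand, and each window runs from 250 bases before to 50 after the start site (RefSeq, GRCm38.p6).
Col1a2 (chr6:4505368-4505667, plus strand): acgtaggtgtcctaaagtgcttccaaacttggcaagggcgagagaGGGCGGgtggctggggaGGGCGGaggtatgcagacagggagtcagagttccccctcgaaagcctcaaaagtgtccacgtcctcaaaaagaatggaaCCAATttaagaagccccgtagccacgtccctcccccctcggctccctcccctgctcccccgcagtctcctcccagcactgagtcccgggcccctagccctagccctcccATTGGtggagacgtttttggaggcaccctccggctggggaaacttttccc
Col3a1 (chr1:45311288-45311587, plus strand): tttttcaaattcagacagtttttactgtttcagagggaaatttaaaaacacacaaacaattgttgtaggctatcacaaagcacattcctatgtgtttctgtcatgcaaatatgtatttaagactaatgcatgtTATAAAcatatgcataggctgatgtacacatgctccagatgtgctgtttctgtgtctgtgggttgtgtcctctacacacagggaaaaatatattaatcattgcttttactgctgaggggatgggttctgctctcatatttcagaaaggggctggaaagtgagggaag
By letters alone, the Col1a2 window held 2 CCAAT matches, 2 GGGCGG matches and no TATAAA. The Col3a1 window held 1 TATAAA match and neither of the others. The place of a match within the window was not weighed, and a box outside the window would be missed. RefSeq windows were found for 35 of the 44 genes (38 windows). The GC box was in 60.5% of member windows and 35.7% of all 32851 windows, the CCAAT box in 34.2% and 37.4%, and the TATA box in 13.2% and 13.6%. These are letter matches, and nothing was measured at them.

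Genes that make, bind or break down collagen, or limit its breakdown, follow as log2 differences. Their counts stand beside the shares of all genes given above, 25.7% higher and 23% lower in con/ko against LDRG, 6.7% higher and 5.23% lower in CFA against LDRG, and 24.1% higher and 28% lower in CFA against con/ko. Of 31 genes for collagen making and processing, 19 were higher and 4 lower in con/ko against LDRG, among them Pcolce, an enhancer of procollagen cleavage, at 1.66 (SE 0.11), Adamts2, a procollagen peptidase, at 1.20 (SE 0.11), P3h3, a prolyl hydroxylase, at 1.04 (SE 0.10), and the crosslinking enzyme gene Loxl1 at 1.55 (SE 0.15). In CFA against LDRG 3 were higher and 2 lower, with Adamts2 at 0.78 (SE 0.10), Pcolce at 0.73 (SE 0.11), Pcolce2 at -0.37 (SE 0.05) and P4ha3 at -0.40 (SE 0.06). Against con/ko, CFA had 1 higher and 22 lower.

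Of 10 collagen receptor genes, 5 were higher and 1 lower in con/ko against LDRG, with Mrc2 at 1.92 (SE 0.16), and 2 higher in CFA against LDRG, Mrc2, which takes up collagen, at 1.22 (SE 0.15) and the collagen-binding kinase Ddr2 at 0.64 (SE 0.08). The 14 genes listed for breakdown include Timp1, Timp2, Timp3 and Timp4, which encode inhibitors of it. Of the 14, 8 were higher and 2 lower in con/ko and 3 higher in CFA: Mmp8, Mmp9 and Mmp2. Mmp8 was at 7.05 (SE 0.75) in con/ko and 4.96 (SE 0.70) in CFA, and Mmp2 at 1.44 (SE 0.19) and 0.68 (SE 0.18). Mmp8 and Mmp9 are stored in neutrophils. Of 21 matrix partners, 18 were higher and 2 lower in con/ko and 13 higher in CFA, with Fn1, fibronectin, at 2.85 (SE 0.19) and 1.42 (SE 0.17).

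Several lists of markers of other cells were in the same order of sets, and their part in the collagen differences was not tested. The 9 fibroblast markers summed to 422 to 517 CPM in LDRG, 659.7 to 1036 in CFA and 794 to 1726 in con/ko, and all 9 were higher in con/ko than in LDRG and 7 in CFA. Dcn, which gave most of these sums, and Lum are also counted among the matrix partners. The 5 meninges markers ran from 21.6 to 65.5, 62.0 to 237 and 148 to 486 CPM. The 6 perineurial markers ran from 115 to 133, 149 to 233 and 176 to 269 CPM. Of 7 pericyte and smooth muscle markers, 4 were higher in con/ko than in LDRG and 1 in CFA. The 7 endothelial markers had 5 and 1 higher, and their sums were 82.4 to 104 CPM in LDRG, 75.7 to 116 in CFA and 114 to 142 in con/ko. Red cell markers summed to 33.8 to 53.9, 206 to 618 and 1590.2 to 4311 CPM, and neutrophil markers to 1.38 to 5.34, 37.1 to 126 and 134 to 2453 CPM. The 6 macrophage markers were all higher in con/ko and 2 in CFA. Of 7 myelinating Schwann markers 6 and 0 were higher, of 4 non-myelinating Schwann markers 0 and 1, and of 5 satellite glia markers 1 was higher and 1 lower in con/ko and 2 lower in CFA. Skeletal muscle markers had 0 calls in con/ko and 3 lower in CFA. Of the 9 sensory neuron markers, 7 were lower in con/ko and 1 in CFA. Cartilage and bone markers summed to 84.6 to 96.3, 74.8 to 107 and 54.1 to 92.6 CPM, not in that order of sets, and 2 of their 11 genes were at 0 in LDRG and CFA.

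GC content also moved with the sets. In con/ko against LDRG the median log2 difference of all genes ran from -0.19 in the lowest GC decile to 0.24 in the highest, and from 0.36 for the shortest to -0.12 for the longest genes. The members' median GC was 55.1% against 49.8% over all genes, and their median exon length 7.54 kb against 4.16 kb. With GC and length decile offsets, chosen after seeing the data, 30 members were higher in con/ko against LDRG (24.1% of all genes) and 11 in CFA against LDRG (6.65% of all genes). In CFA against con/ko 24 were lower and 3 higher (25.7% and 23.6% of all genes). The calls lost there were those of Col16a1, Col18a1, Col20a1 and Col4a2, with Col18a1 at -0.28 without and -0.11 with the offsets and Col4a2 at -0.31 and -0.14.

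The genotype comparison asked what removing Tmem45b from the Mrgprd lineage changed. In untreated ganglia, with name set as a term, 0 of 43 members tested passed by edgeR, against 0.00599% of all genes, which is Tmem45b alone. At an unadjusted p under 0.05 there were 13 of 43 members, against 6.73% of all genes. DESeq2 called 1 member, Col7a1, and 0.239% of all genes. Of the 43 members 36 were below 0, against 50.6% of all genes, with a median of -0.17 against 0.00. The 4 smallest p belonged to Col7a1 at -0.56 log2 units (SE 0.14, adjusted p = 0.646), Col26a1 at -0.77 log2 units (SE 0.20, adjusted p = 0.646), Col3a1 at -0.79 log2 units (SE 0.24, adjusted p = 0.662) and Col4a2 at -0.40 log2 units (SE 0.12, adjusted p = 0.662). Col4a2 stood at 63.8, 76.9 and 88.2 CPM in the flox LDRG libraries and 75.5, 70.8 and 75.1 CPM in the cKO LDRG libraries. Col4a2 levels in the CFA libraries were 83.8, 83.1, 74.2 and 67.9 CPM where labelled flox and 96.0, 90.7, 87.8 and 74.3 CPM where labelled cKO. Col4a2 was at 157, 110.4 and 123 CPM in flox con/ko and 79.0, 73.6, 82.0 and 84.7 CPM in cKO con/ko libraries. A p that misses the threshold does not show that the genotypes were alike.

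Each name set was also fitted alone. In the con/ko set 3 members fell in cKO, Col6a2 by 0.58 on the log2 scale (SE 0.06, adjusted p = 0.0146), Col6a1 by 0.66 (SE 0.08, adjusted p = 0.0301) and Col14a1 by 0.77 (SE 0.10, adjusted p = 0.0367), where 0.237% of all genes fell. The first 2 are beaded filament partners, and Col14a1 coats fibrils. The code letter C is carried by 1 of the 3 flox and 3 of the 4 cKO con/ko libraries and L by the others, so letter and genotype are unbalanced. With the letter as a term, chosen after seeing the data, 5 members were called lower (0.292% of all genes), among them Col3a1 at -1.496 (adjusted p = 0.0168). Without the letter, Col3a1 was at -1.33 log2 units (SE 0.22, adjusted p = 0.0911), Col8a1 at -0.80 log2 units (SE 0.14, adjusted p = 0.105) and Col4a2 at -0.70 log2 units (SE 0.12, adjusted p = 0.112) without a call. The median over 42 members was -0.36, and 36 were below 0 against 47.6% of all genes. Every cKO con/ko library lay below every flox con/ko library for 13 members, where 4.28% of all genes do so: Col3a1, Col5a1, Col4a1, Col4a2, Col4a5, Col7a1, Col6a1, Col6a2, Col6a3, Col6a4, Col14a1, Col8a1 and Col26a1. Leaving out single con/ko libraries changed the number of calls: 0 were made without flox 4, flox 6, cKO 4 or cKO 6, 1 without cKO 7 (Col6a2), 2 without flox 5 and 3 without cKO 5. The 2 without flox 5 were Col6a2 and a member outside the 3 named, since Col14a1 (adjusted p = 0.0507) and Col6a1 (adjusted p = 0.0602) lost their calls. Where calls were lost the values stayed between -0.84 and -0.71 for Col14a1, -0.71 and -0.62 for Col6a1, and -0.60 and -0.55 for Col6a2 on the log2 scale.

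In the LDRG set alone 0 of 43 members were called by edgeR (0.0188% of all genes were called), and the median was -0.01 with 21 above and 22 below 0 (51% of all genes below). Col7a1 at -0.34 log2 units (SE 0.11, adjusted p = 0.99) had the smallest p and was the 1 member with every cKO library below every flox library, where 4.98% of all genes are so ordered. The difference between the sets in the genotype effect was tested directly, and no member passed: the lowest adjusted p was 0.368, for Col14a1 (-0.93, SE 0.21). Skeletal muscle markers summed to 420 to 767 CPM in the 3 flox con/ko libraries and 3.98 to 13.9 CPM in the 4 cKO con/ko libraries, and myelinating Schwann markers to 8375 to 13039 and 5595 to 9919 CPM. Pericyte and smooth muscle markers did not overlap, at 309 to 335 CPM in flox and 255 to 276 CPM in cKO con/ko libraries. Fibroblast markers overlapped, at 946 to 1429.6 and 794 to 1726 CPM, but Dcn made up most of these sums. Dcn averaged 889 CPM in flox and 910 CPM in cKO con/ko libraries. The median log2 difference of the 9 fibroblast markers was -0.18 in the con/ko set alone, with 0 calls. The part of these markers in the collagen differences was not tested.

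In CFA libraries labelled by genotype, 0 of 42 members passed by edgeR, DESeq2 called 0 (0.112% of all genes), and edgeR called 0% of all 16116 genes. At an unadjusted p under 0.05 there were 0 members, against 4.96% of all genes. The median was 0.02, with 25 above and 17 below 0 (47.5% of all genes below). The 4 smallest p belonged to Col22a1 at -0.40 log2 units (SE 0.21, adjusted p = 0.938), Col4a2 at 0.17 log2 units (SE 0.09, adjusted p = 0.938), Col1a1 at 0.19 log2 units (SE 0.11, adjusted p = 0.938) and Col16a1 at -0.12 log2 units (SE 0.07, adjusted p = 0.938). The interaction of genotype with CFA was called for 0 of 44 members by edgeR and 0 by DESeq2 (0% of 16928 genes by edgeR), where DESeq2 called 0.0827% of all genes. At an unadjusted p under 0.05 there were 8 of 44 members, against 4.18% of all genes. The smallest p belonged to Col4a2 at 0.54 log2 units (SE 0.14, adjusted p = 0.99997), Col3a1 at 0.87 log2 units (SE 0.29, adjusted p = 0.99997), Col26a1 at 0.95 log2 units (SE 0.32, adjusted p = 0.99997) and Col4a1 at 0.45 log2 units (SE 0.18, adjusted p = 0.99997).

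**Figure D5:**
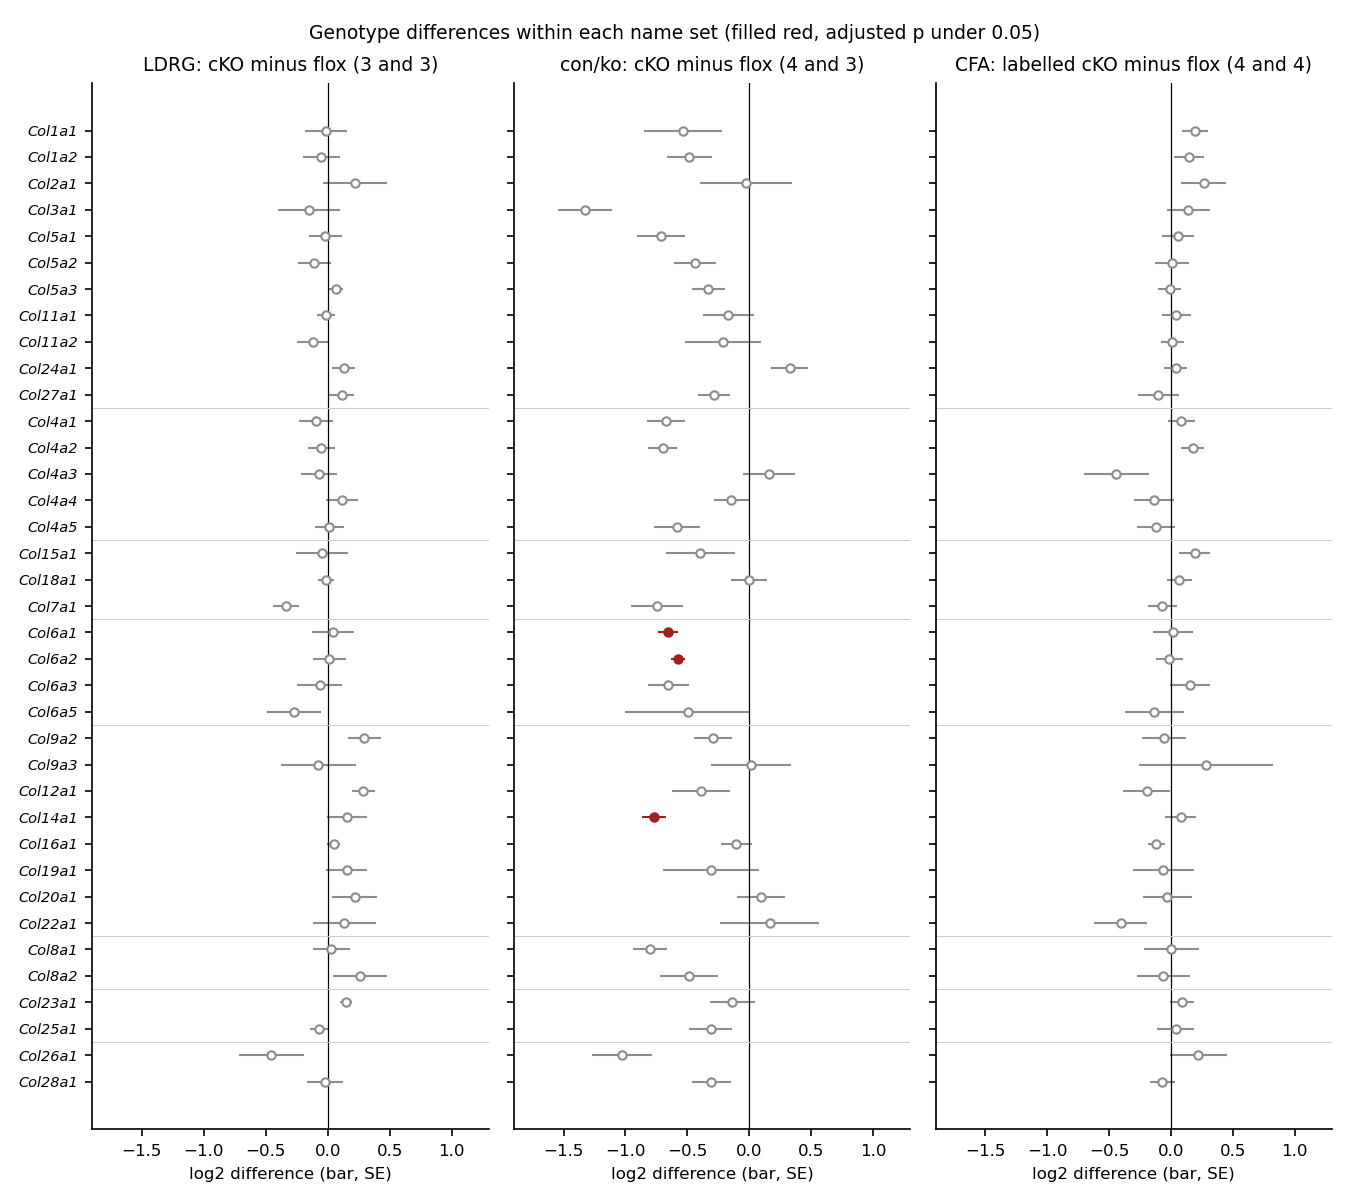
Log2 difference of cKO minus flox within each name set for the 37 members with a mean of at least 1 CPM, with bars of 1 SE and filled red points for adjusted p under 0.05. The LDRG and CFA points lie on both sides of 0, and in con/ko Col6a1, Col6a2 and Col14a1 are called below 0.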

How the data were processed

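RNA sequencing libraries of mouse dorsal root ganglia were analysed from 2 tables of raw counts that the authors deposited, with 14 and 7 libraries. Reads were processed with fastp 0.23.2, BWA 2.2.1 and SAMtools 1.14 on mm10, and DESeq2 1.40.2 is also listed, per the submitters' processing notes. The sources used here do not say how reads were counted or whether strand was used. The 24381 shared genes were fitted in R 4.3.3 with edgeR 4.0.16 (filterByExpr with minimum count 10 and total 15, TMM, quasi-likelihood F test, Benjamini-Hochberg adjustment, calls at adjusted p under 0.05). SE is the size of the log2 difference over the root of F. CFA genotypes were fitted on their own 8 libraries. CPM per kilobase uses union exon lengths of GENCODE vM21. DESeq2 1.42.0 was an alternative, and the fits were tested on simulated data. Named were all members with their class, those called or with the smallest p, the 6 with the highest level, and up to 4 genes of each list. The members and lists were chosen with earlier results of these data known.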

Additional observations from a re-analysis of the deposited data

Results flagged for a closer look

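In 4 of 111 pairs of member and group of 4 libraries, the highest or lowest library stood apart from the other 3 by a gap test; chance would give 5.55. Col4a3 was at 7.41 CPM in CFA flox 1, where the others were at 3.44 to 3.98. Col6a2 was at 46.2 CPM in CFA cKO 1, where the others were at 35.6 to 37.0. Col16a1 was at 68.1 CPM in CFA flox 4, where the others were at 77.9 to 78.2. Col19a1 was at 4.63 CPM in CFA cKO 4, where the others were at 2.28 to 2.62.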

How the results depend on the processing

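For the untreated genotype comparison, 0 members were called with RLE size factors, other filters, no name set term or a replicate block; DESeq2 called 1 (Col7a1), the con/ko set alone 3, and that set with the C or L code letter as a term, chosen after seeing the data, 5. Leaving out each con/ko library in turn, also chosen after seeing the data, gave 0 to 3 calls in that set. Same-numbered libraries did not deviate together (correlations of -0.15 to 0.24), and the block also gave 0 calls in CFA and in the interaction. CFA against LDRG had 11 calls, but 5 with flox and 4 with cKO libraries only. In such fits the CFA genotypes were taken as labelled. CFA against con/ko had 29 calls and 15 with cKO libraries only, where Col3a1 turned to 0.15 and Col4a2 to 0.12. With flox libraries only it had 24. The cause was not tested. Con/ko against LDRG had 30 calls, 27 with flox and 21 with cKO libraries only. With each library left out in turn CFA against LDRG gave 8 to 14 calls, CFA against con/ko 28 to 31 and con/ko against LDRG 29 to 31. The meaning of the code letters is not given in the labels.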
